A study of Brassica napus with 45 samples.

Results

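The first 250 annotated genes of rapeseed chromosome A08 were examined for a run of lowered genes that appeared in overexpression line 1. Members were the genes on A08 whose running number, read from the identifier, lay between 1 and 250. There were 250 of them among 100919 genes, and 3222 genes were listed on A08. The window was proposed because its levels differed between line 1 and the other genotypes and among the line 1 libraries. The levels of line 1 against wild type and line 2 are therefore descriptions, and support nothing beyond themselves.

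Rapeseed (Brassica napus) is an allotetraploid that carries an A subgenome, related to Brassica rapa, and a C subgenome, related to Brassica oleracea. Most genes have a related copy, a homoeologue, in the other subgenome. Homoeologous chromosomes can exchange or lose segments in this species, and neighbouring genes then share a dose. NAC proteins are plant transcription factors, abscisic acid (ABA) is the hormone of drought and salt stress, and polyethylene glycol (PEG) draws water from roots.

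The study measured leaf RNA of hydroponic seedlings in 45 libraries, 15 groups of 3, described in the labels as biological replicates with no word on shared plants. The overexpression experiment (27 libraries) held BnNAC038 over-expression line 1, BnNAC038 over-expression line 2 and its own wild type. The knockout experiment (18 libraries) held 1 BnNAC038 knockout line and another set of wild type libraries. Each genotype was treated with 50 μM ABA for 3 hours, with 20% PEG for 6 hours, or not treated. For line 2 the genotype field names a differently numbered NAC gene in each library, and the titles, which name BnNAC038 throughout, were followed. No source used here gives the promoter of the transgene or the age of the plants. The column names of the knockout experiment's wild type carry the label K407, which is not explained. Since the files pair no identifier with a gene name, gene roles, leaf markers and the level of BnNAC038 itself were not analysed here. p-values set differences between groups against the spread between these libraries, and whether the libraries are separate plants is not stated.

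Values of the overexpression experiment are TPM, transcript abundances scaled for length and library size, and each of its libraries summed to 1000000 TPM. Those of the knockout experiment are another normalized value of unstated kind, with library sums of 760713 to 842688. Read depth is unknown in both. Correlation between replicates of a group was at least 0.955 in the overexpression experiment and 0.948 in the knockout experiment. In the overexpression experiment, replicates 2 and 3 of the wild type treated with ABA stood apart. Of 7 genes that had at least 5 TPM in every line 1 and line 2 library and under 0.5 TPM in every untreated and PEG-treated wild type library, all 7 had at least 1 TPM in these 2 libraries, against 0 of 7 in ABA-treated wild type replicate 1. Results that use those libraries are also given without them where the value moved.

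The lowered run was taken from the first listed gene and ended between genes 126 and 129. For each gene the line 1 level was set against the mean of the 6 wild type and line 2 libraries of the same condition, as log2 of the ratio after adding 1 TPM. A single step, placed by least squares over the 126 members with a comparison level of at least 1 TPM in all conditions, fell after gene 128. It removed 77.0% of the sum of squares. The 68 genes inside, the first of them gene 2, averaged -0.84 and those outside averaged -0.05 on this log2 scale. The start of the run was not fitted. A second step removed only 6.26% of the sum left by the first, under the 10% set for allowing one. Restricted to genes with a comparison level of at least 5 TPM, the step fell after gene 126. A second step after gene 133 then removed 15.0% of the sum left, which passed the 10% limit. Single libraries of line 1 put the step after gene 117, 126 or 128. In PEG-treated replicate 3 a step removed only 3.98% of the sum of squares. The run is taken as genes 1 to 128, which is 128 genes, 18 of them at 0 in every library of the overexpression experiment. The 122 remaining members lie beyond it, 16 of them at 0 throughout.

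**Figure D1:**
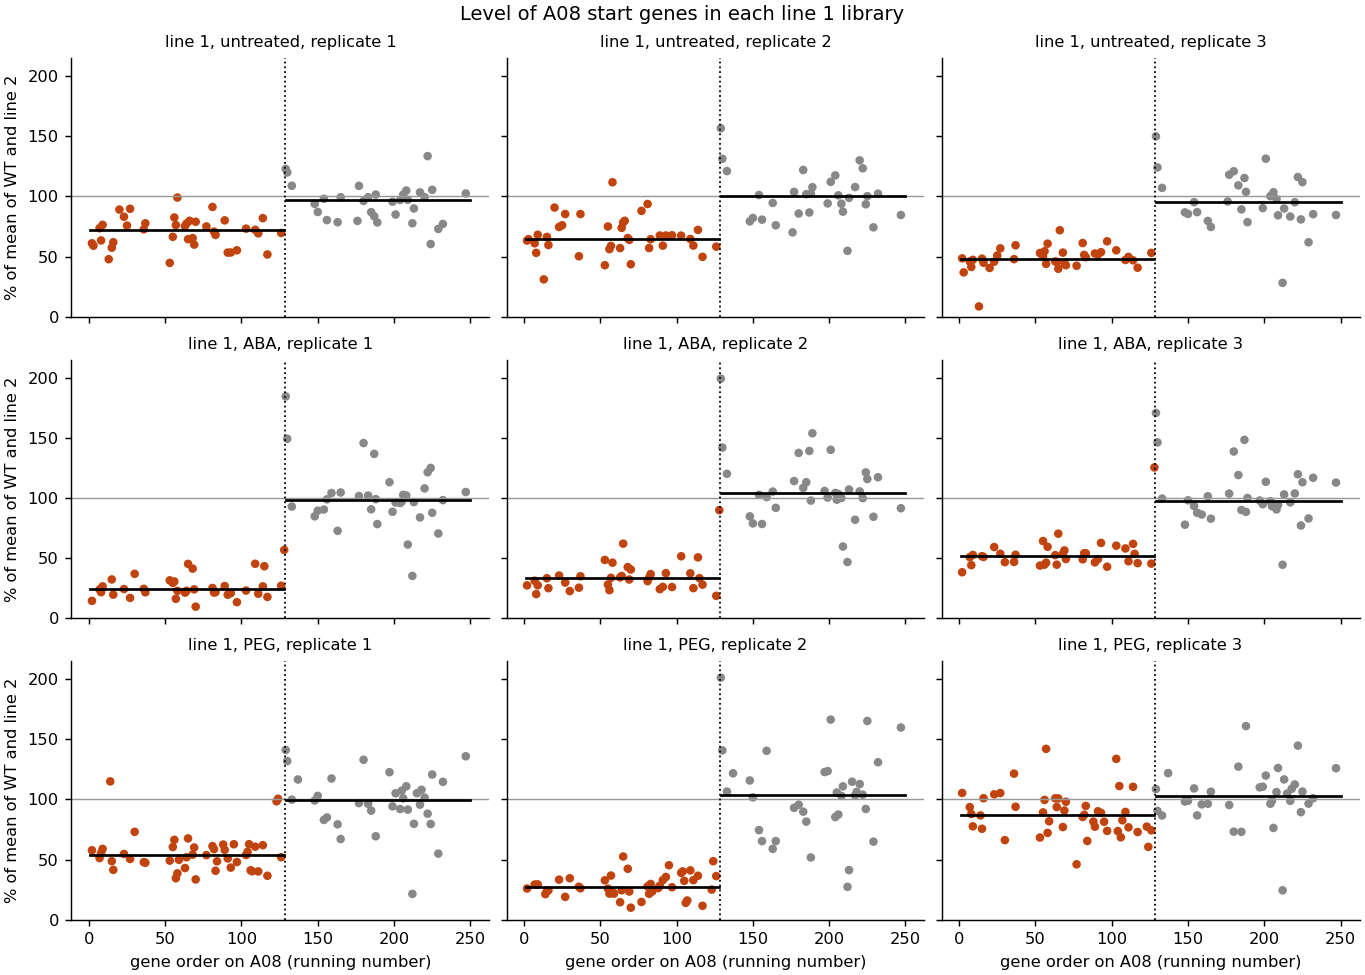
Level of each A08 gene with a comparison level of at least 5 TPM, as a percentage of the mean of the wild type and line 2 libraries of its condition, against its running number, in each of the 9 line 1 libraries. Orange points are run genes, grey points lie beyond the edge (dotted line), and black lines are medians. Medians of the orange points sit well below 100% in 8 of the 9 libraries, lowest in ABA replicate 1 and PEG replicate 2, while grey medians stay near 100%. Single orange points reach over 100% in some of those 8 libraries.

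The line 1 libraries held very different levels of the run, within a condition as well as between conditions. Untreated, the summed level of the 128 genes was 1428, 1212 and 969 TPM in line 1 replicates 1, 2 and 3, against 2020, 1765 and 1899 TPM in line 2 and 1951, 2072 and 2097 TPM in wild type. With ABA it was 616, 749 and 1156 TPM in line 1, against 2072, 2181 and 2229 TPM in line 2 and 2334, 2080 and 2241 TPM in wild type. With PEG it was 1166, 699 and 2074 TPM in line 1, against 2156, 2238 and 2227 TPM in line 2 and 2007, 2017 and 2143 TPM in wild type. All 3 line 1 libraries lay below every line 2 and wild type library in the untreated and ABA conditions. With PEG, replicates 1 and 2 did so, and replicate 3 lay among the wild type libraries.

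Relative to the wild type mean of the same condition, untreated line 1 held 70.0%, 59.4% and 47.5% of the run's summed level, ABA-treated line 1 held 27.7%, 33.8% and 52.1%, and PEG-treated line 1 held 56.7%, 34.0% and 100.9%. Relative to the line 2 mean the untreated percentages were 75.4, 64.0 and 51.1. They were 28.5, 34.7 and 53.5 with ABA, and 52.8, 31.7 and 94.0 with PEG. Against either genotype the lowest library was ABA replicate 1 and the highest PEG replicate 3. Line 2 libraries held 86.5% to 109% of the wild type mean, and single wild type libraries 93.8% to 105%. The line 1 group means were 59.0 ± 11.3% untreated, 37.9 ± 12.7% with ABA and 63.9 ± 34.0% with PEG (SD, n = 3 each). The coefficient of variation of the summed level was 19.1%, 33.5% and 53.2% in line 1, against 6.74%, 3.72% and 2.01% in line 2 and 3.83%, 5.78% and 3.69% in wild type, in the same order of conditions. In leaf RNA, fewer cells that carry the transcripts and fewer transcripts per cell cannot be told apart.

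**Figure D2:**
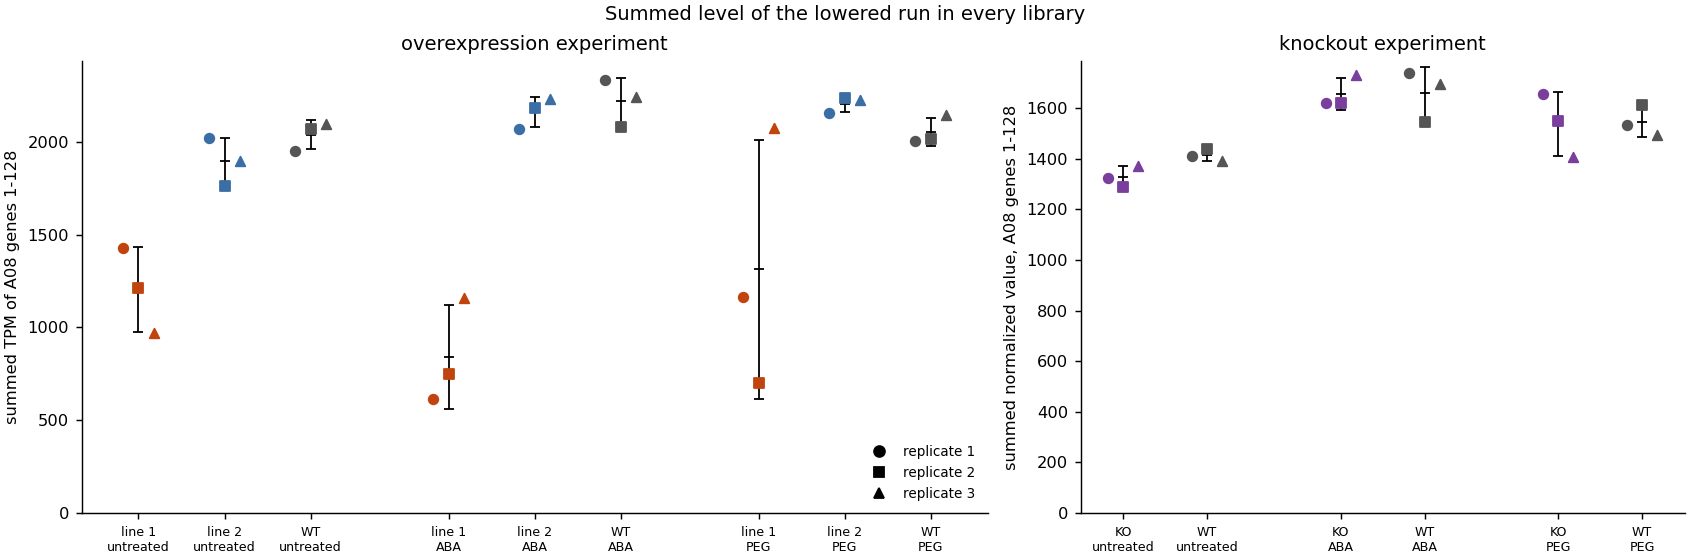
Summed level of the 128 run genes in every library, in TPM for the overexpression experiment (left) and in the authors' normalized value for the knockout experiment (right). Symbols mark replicates, and bars are the mean ± SD of 3 libraries. Line 1 spans 616 to 2074 TPM, line 2 and wild type stay between 1765 and 2334 TPM, and the knockout overlaps its wild type with ABA and with PEG.

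Up to gene 250 the same libraries were close to the other genotypes beyond the edge. From gene 129 to 250 the summed level of the 9 line 1 libraries was 96.9% to 107% of the wild type mean and 101.4% to 108% of the line 2 mean. Over the next 250 genes of A08 the summed level was more variable, at 86.2% to 132% of the wild type mean and 80.7% to 124% of the line 2 mean, and the median ratio of line 1 to wild type lay between 0.88 and 1.01. For all other chromosomes together the median ratio lay between 0.95 and 1.02.

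The 2 most abundant run genes made up 50.9% of the run's wild type level, and the remaining genes were lowered too. BnaA08G0003600ZS had 649, 450 and 428 TPM in untreated line 1, against 946, 658 and 824 TPM in line 2 and 884, 1044 and 1005 TPM in wild type. With ABA it had 234, 243 and 447 TPM in line 1, against 819, 932 and 941 TPM in line 2 and 1095, 996 and 948 TPM in wild type. With PEG it had 268, 154 and 680 TPM in line 1, against 433, 546 and 529 TPM in line 2 and 591, 740 and 522 TPM in wild type. With ABA no line 1 library reached the other groups, while PEG-treated line 1 replicate 3 lay above all line 2 libraries. BnaA08G0003700ZS, its neighbour, had 221, 243 and 169 TPM in untreated line 1, against 232, 327 and 291 TPM in line 2 and 299, 247 and 311 TPM in wild type. With ABA it had 39.7, 64.3 and 97.1 TPM in line 1, against 182, 195 and 171 TPM in line 2 and 171, 179 and 206 TPM in wild type, with no overlap. Without the 5 most abundant run genes, which made up 68.6% of the wild type sum, the run stood at 75.2%, 67.7% and 49.7% of wild type untreated, 26.5%, 35.7% and 54.6% with ABA, and 56.9%, 31.5% and 87.4% with PEG. In PEG replicate 3 the median ratio over run genes was 0.90.

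The lowering was shared by most of the run, and most genes ranked the libraries of a condition alike. Among 34 run genes with a comparison level of at least 5 TPM in all conditions, untreated replicate 3 was the lowest of its 3 libraries for 31, ABA replicate 1 for 28 and PEG replicate 2 for 33. ABA replicate 3 was the highest of its group for 33 and PEG replicate 3 for 34. In 7 of the 9 libraries all 34 genes were below the comparison level, in untreated replicate 2 it was 33, and in PEG replicate 3 it was 24. Of the 68 genes used to place the edge, 46 were below the comparison level in all 9 line 1 libraries, 19 in 8 and 3 in fewer. The mean log2 ratio of single genes over the 9 libraries ran from -1.47 to -0.42, with a median of -0.83.

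**Figure D3:**
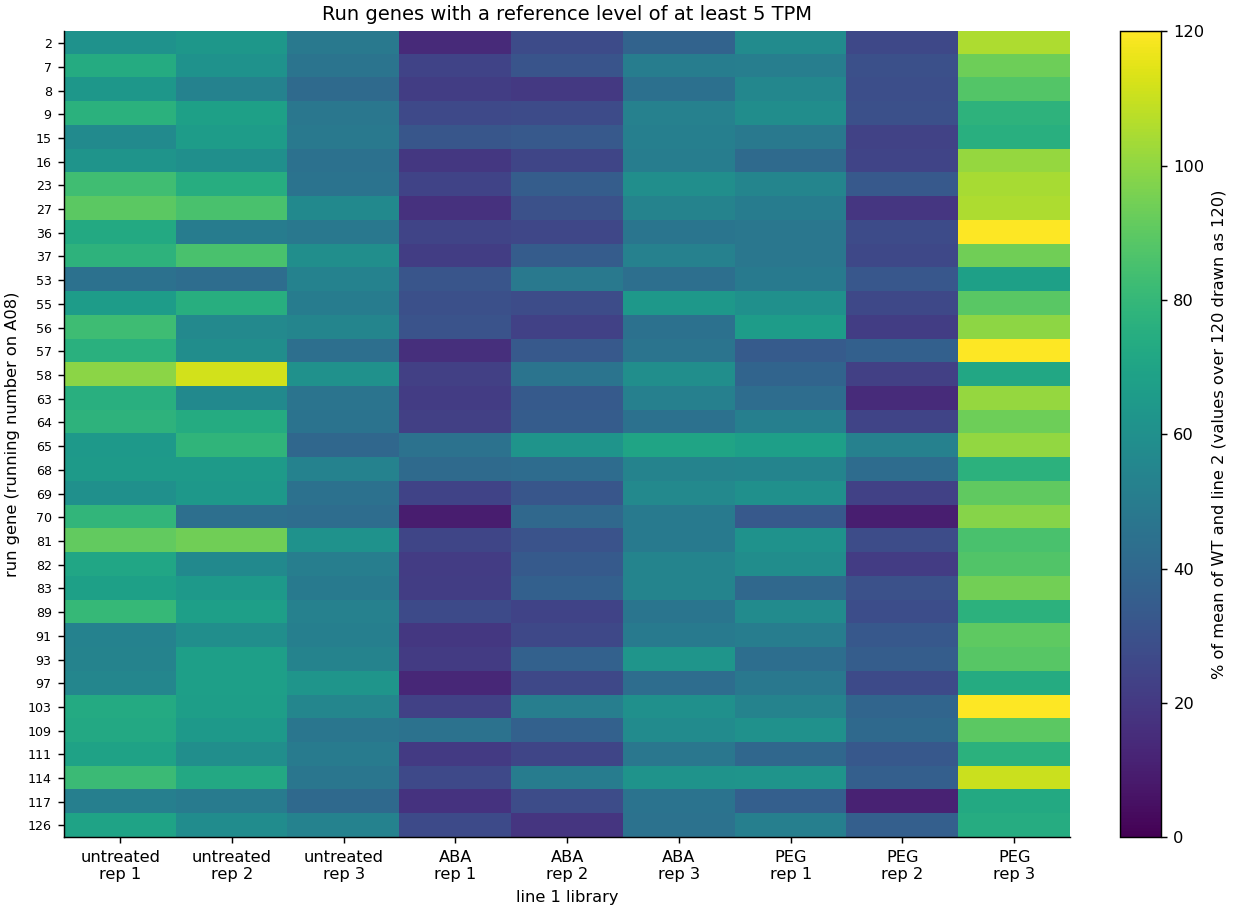
Level of the 34 run genes with a comparison level of at least 5 TPM in all conditions, as a percentage of the wild type and line 2 mean, in the 9 line 1 libraries, with genes in chromosomal order from top to bottom. Within its condition ABA replicate 1 is lowest for 28 of the 34 genes and PEG replicate 2 for 33, and PEG replicate 3 is highest for all 34.

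With ABA and with PEG, bins along the run differed less in their medians than in their sums, while untreated the sums differed less. In bins of 25 running numbers, the median gene of the first 5 bins was at 21.7% to 25.1% of the comparison level in ABA replicate 1, at 27.4% to 33.8% in ABA replicate 2 and at 47.1% to 54.1% in ABA replicate 3. In PEG-treated line 1 the bins spanned 52.3% to 57.3%, 24.1% to 37.1% and 77.0% to 93.7% in replicates 1, 2 and 3. Untreated they spanned 63.7% to 76.6%, 61.1% to 72.3% and 42.2% to 51.9%. Within a condition the ranges of the libraries did not overlap, except those of untreated replicates 1 and 2. The summed levels of the same bins spanned 24.04% to 35.3%, 26.98% to 50.5% and 47.8% to 61.9% in ABA replicates 1, 2 and 3. They spanned 49.1% to 63.5%, 26.8% to 43.2% and 85.0% to 113% in PEG replicates 1, 2 and 3. In untreated replicates 1, 2 and 3 the sums spanned 66.0% to 74.2%, 59.0% to 68.9% and 44.4% to 52.6%. The next 5 bins, which start 3 genes before the edge, were at 90.3% to 96.6% in ABA replicate 1. In PEG replicate 2, one of those bins was at 65.3%.

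The median percentages of run genes of low and high abundance differed by library. In ABA replicate 1 the median was 23.3% for 34 genes with a comparison level of 1 to 5 TPM and 23.9% for 37 genes of 5 TPM or more. The widest gaps were in PEG replicate 2, at 35.4% for 29 genes and 27.4% for 47, and in untreated replicate 3, at 42.2% for 29 genes and 48.5% for 40, in opposite directions. For ABA replicate 1 the median was 43.2% for 7 run genes that ABA raised in wild type, 32.5% for 4 that it lowered and 22.1% for 60 that it did not change past the threshold. In ABA replicate 2 those medians were 37.4%, 27.3% and 30.9%, and in ABA replicate 3 they were 58.0%, 58.3% and 50.0%. These classes hold few genes, and their differences were not tested.

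Genes whose line 1 libraries were all below all 6 line 2 and wild type libraries were common in the run and rare beyond it. With ABA this held for 60 of 71 run genes with a comparison level of at least 1 TPM, beside 3.51% of all such genes. Untreated it held for 46 of 69, beside 3.22%, and with PEG for 25 of 76, beside 2.09%. Between the edge and gene 250 the counts were 3 of 63, 1 of 63 and 3 of 65. The window was chosen on these contrasts, so nothing is read from these shares.

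A linear model in limma, fitted over all 47474 genes tested in the overexpression experiment (Benjamini-Hochberg adjusted p under 0.05), covered 79 of the 128 run genes and 72 of the 122 beyond. For line 1 against wild type it called 53 run genes lower with ABA, 42 with PEG and 7 untreated, beside 1.35%, 6.91% and 2.28% of all genes called lower. For line 1 against line 2 it called 38 lower with ABA, 2 with PEG and 0 untreated, beside 0.0969%, 0.131% and 0.0253%. In the untreated comparison of the lines limma gave an unadjusted p under 0.05 to 50 of the 79. The share of all genes at that unadjusted threshold is not given, so nothing is read from this number. Of the 46 genes in the whole genome called lower in line 1 than in line 2 with ABA, 38 (82.6%) lay in the run. These counts describe the choice of the window and are not evidence for it.

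Single libraries moved those counts strongly. Leaving out PEG-treated line 1 replicate 3 gave 64 run genes lower than wild type and 44 lower than line 2. Leaving out its replicate 2 gave 7 and 0, and leaving out its replicate 1 gave 24 and 4. The number against wild type was 15 if PEG-treated wild type replicate 2 was left out. Without PEG-treated line 2 replicate 1, 2 or 3 the number against line 2 was 0, 0 and 1. With ABA, 30 genes were lower than wild type without line 1 replicate 1, and 16 without wild type replicates 2 and 3, where the 1 remaining library is assumed to vary like the other groups. Against line 2 the ABA number was 5 without line 1 replicate 1 and 0 without its replicate 2. It was 8, 8 and 6 without line 2 replicate 1, 2 and 3. The untreated number against wild type was 3 and 1 without line 1 replicate 1 and 3, and 3 and 1 without wild type replicate 1 and 2. The untreated number against line 2 was 1 without line 2 replicate 3.

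At the edge the levels changed within a few genes. BnaA08G0011700ZS (gene 117), inside, had 12.0, 18.8 and 30.9 TPM in ABA-treated line 1, against 66.7, 73.5 and 61.8 TPM in line 2 and 78.5, 61.7 and 61.9 TPM in wild type. BnaA08G0012600ZS (gene 126), the next gene inside with a comparison level of at least 5 TPM in all conditions, had 5.33, 3.67 and 8.95 TPM in ABA-treated line 1, against 20.2, 19.2 and 19.1 TPM in line 2 and 19.0, 21.5 and 19.2 TPM in wild type. For both genes no line 1 library reached the other groups. BnaA08G0012800ZS (gene 128), inside by the least-squares step, was less clear. It had 9.51, 15.0 and 21.0 TPM in ABA-treated line 1, against 10.9, 9.76 and 9.13 TPM in line 2 and 18.4, 31.8 and 20.4 TPM in wild type, and line 1 overlapped both.

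The first 2 genes beyond the edge with a comparison level of at least 5 TPM were higher in line 1. BnaA08G0012900ZS (gene 129) had 28.1, 30.3 and 26.0 TPM in ABA-treated line 1, against 17.6, 15.0 and 15.1 TPM in line 2 and 13.7, 15.1 and 15.0 TPM in wild type. Untreated it had 29.3, 37.4 and 35.8 TPM in line 1, against 23.2, 25.1 and 24.1 TPM in line 2 and 22.2, 23.2 and 25.2 TPM in wild type. With PEG it had 50.4, 71.9 and 38.8 TPM in line 1, against 44.6, 36.1 and 34.3 TPM in line 2 and 34.6, 28.9 and 36.0 TPM in wild type. Line 1 did not overlap the other groups untreated or with ABA, and with PEG replicate 3 lay among the line 2 libraries. Its percentages of the comparison level were 123, 157 and 150 untreated, 184, 199 and 171 with ABA, and 141, 201 and 109 with PEG. In the ABA and PEG conditions the library in which it was nearest to the other genotypes, replicate 3, was also the one in which the run was highest. In the untreated condition that was replicate 1 for both. It was the 1 member beyond the edge called in line 1 against line 2 with ABA, where it was higher.

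BnaA08G0013000ZS (gene 130) was at 120%, 131% and 124% of the comparison level untreated, at 149%, 142% and 146% with ABA, and at 132%, 141% and 90.4% with PEG. In ABA-treated line 1 it had 30.8, 29.3 and 30.1 TPM, against 22.9, 21.3 and 22.6 TPM in line 2 and 19.4, 17.6 and 19.9 TPM in wild type, with no overlap. Further on, the most abundant member beyond the edge, BnaA08G0018800ZS, was at 102%, 102% and 104% untreated, at 99.0%, 97.8% and 88.4% with ABA and at 69.3%, 51.7% and 161% with PEG. BnaA08G0018300ZS, the next, was at 99.4%, 122% and 109% untreated, at 102%, 108% and 119% with ABA and at 96.3%, 89.8% and 127% with PEG. The genes around number 250 were as follows. BnaA08G0023200ZS and BnaA08G0024700ZS, just inside gene 250, were at 98.2%, 117% and 117% and at 105%, 91.4% and 113% of the comparison level with ABA. BnaA08G0025200ZS and BnaA08G0025700ZS, just outside, were at 109%, 106% and 116% and at 91.7%, 88.2% and 95.1%. With PEG those inside were at 115%, 131% and 100.9% and at 136%, 160% and 126%, and those outside at 121%, 94.1% and 103% and at 83.2%, 84.3% and 114%.

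In line 1, 1 of the 79 tested run genes was called higher by limma, against wild type in all conditions and against line 2 with ABA and with PEG. It was singled out after its values were seen. The shares of all genes called higher were 2.31% untreated, 1.02% with ABA and 6.53% with PEG against wild type, and 0.0295% with ABA and 0.0421% with PEG against line 2. BnaA08G0009900ZS (gene 99) had 3.18, 3.83 and 3.05 TPM in untreated line 1, against 0.809, 1.20 and 2.08 TPM in line 2 and 0.897, 0 and 0.835 TPM in wild type. With ABA it had 9.63, 11.7 and 7.20 TPM in line 1, against 2.73, 0.320 and 0.663 TPM in line 2 and 2.66, 0.435 and 1.22 TPM in wild type. With PEG it had 14.3, 15.0 and 8.26 TPM in line 1, against 1.56, 0 and 1.44 TPM in line 2 and 2.34, 3.56 and 1.12 TPM in wild type. All line 1 libraries were above all others in each condition. Its lowest line 1 library was replicate 3 in every condition, and that library was the lowest of the untreated group for the run and the highest of the ABA and PEG groups.

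In line 1 more run genes were lower with ABA than untreated, compared with line 2 and wild type. Against untreated leaves of the same genotype, 35 of the 79 tested run genes were called lower with ABA in line 1, 4 in line 2 and 4 in wild type, beside 17.9%, 16.2% and 18.3% of all genes (limma, Benjamini-Hochberg adjusted p under 0.05). The spread behind these calls is shared by all 27 libraries, so the uneven line 1 libraries also enter the line 2 and wild type counts. The window was chosen on the levels of these same line 1 libraries. The line 1 counts and medians are therefore descriptions, and no response to treatment is read from them. The median log2 change of the run on the log2(TPM + 1) scale was -0.58 in line 1, -0.09 in line 2 and -0.06 in wild type. Over all genes it was -0.05, -0.07 and -0.06. The line 1 count was 20 without its ABA replicate 1. That of line 2 fell to between 0 and 2 when any of its 6 libraries was left out. That of wild type was 1 without ABA replicate 2, 2 without untreated replicate 2 or 3, and 0 without ABA replicates 2 and 3 together. With PEG the numbers called lower were 13 in line 1, 10 in line 2 and 7 in wild type, beside 26.2%, 26.3% and 22.4% of all genes. The line 1 number was 7 without its PEG replicate 2 and 25 without its PEG replicate 3.

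**Figure D4:**
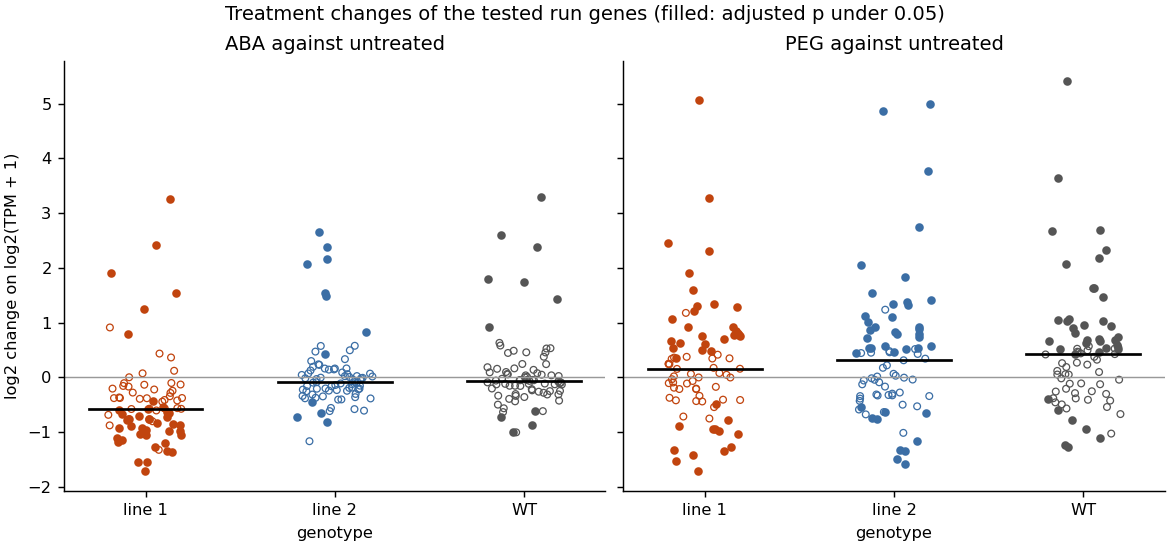
Change of each of the 79 tested run genes with ABA (left) and with PEG (right) against untreated leaves of the same genotype, on the log2(TPM + 1) scale. Points are genes, filled where the adjusted p is under 0.05, and black lines are medians. The ABA median of line 1 is -0.58, below those of line 2 and wild type, while the PEG medians are 0.15, 0.31 and 0.42 in line 1, line 2 and wild type.

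The difference of these responses passed the threshold for no run gene. In the line 1 by ABA interaction against wild type, limma called 0 of 79 run genes, beside 0.0211% of all genes in either direction. At an unadjusted p under 0.05 there were 21 run genes. The share of all genes at that unadjusted threshold is not given, so nothing is read from this number. The median interaction of the run was -0.61, against 0.01 over all genes. In the line 1 by PEG interaction limma called 0 of 79, beside 1.13% of all genes, and the median was -0.25. There 3 run genes had an unadjusted p under 0.05, again without the share of all genes. These medians combine 6 line 1 libraries with unlike levels of the run, and the window was chosen on those levels. The spread among those libraries and an effect of treatment cannot be told apart here.

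2 run genes that treatment raised in wild type show how line 1 stood beside its induced level. BnaA08G0010900ZS was raised by ABA in both wild types, with 94.1, 83.2 and 68.2 TPM in ABA-treated leaves, against 7.09, 8.35 and 6.73 TPM in untreated leaves, in the first experiment (difference 3.30 on the log2 scale, SE 0.25, limma adjusted p = 4.75e-10). With PEG it had 360, 249 and 509 TPM (log2 change 5.42, SE 0.25, limma adjusted p = 8.10e-14). In the knockout experiment's wild type it had 119, 126 and 132 with ABA and 183, 260 and 277 with PEG, against 5.62, 9.01 and 6.99 untreated. With ABA it reached 47.2, 38.9 and 60.5 TPM in line 1, against 135, 116 and 129 TPM in line 2, and with PEG 308, 208 and 454 TPM in line 1, against 680, 612 and 631 TPM in line 2. Line 1 lay below line 2 throughout, and below wild type with ABA but not with PEG. BnaA08G0003000ZS, raised by PEG in wild type leaves of the knockout experiment (19.6, 22.4 and 29.98 with PEG, against 1.99, 1.84 and 2.35 untreated, log2 change 3.01, SE 0.15, limma adjusted p = 1.79e-09), had 26.2, 12.4 and 23.7 TPM in PEG-treated line 1, against 36.6, 36.5 and 41.9 TPM in line 2 and 33.4, 26.4 and 40.2 TPM in wild type.

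Line 2 held the run at about the wild type level. Against wild type limma called 9 of the 151 tested members untreated (4 higher, 5 lower), 2 with ABA and 14 with PEG (8 higher, 6 lower), beside 8.06%, 2.85% and 10.6% of all genes. In the run the numbers were 3, 1 and 3 of 79, and the median log2 difference was 0.06, 0.05 and -0.00. The spread used for these calls includes the uneven line 1 libraries. The window was proposed because line 1 differed from the other genotypes, and the edge was placed against the mean of wild type and line 2. A likeness of line 2 to wild type in the run was thus partly fixed by that choice. Leaving out line 2 replicate 2 or wild type replicate 1 gave 1 with ABA, and leaving out wild type replicate 2 gave 4. With PEG it was 9 without line 2 replicate 2 and 9 without wild type replicate 2.

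Members called in line 2 are given with their line 1 values, and both lines share the wild type libraries. BnaA08G0005300ZS, in the run, had 8.17, 7.62 and 9.82 TPM in PEG-treated line 2, against 16.8, 17.0 and 20.7 TPM in wild type (log2 change -1.01, SE 0.17, limma adjusted p = 2.79e-04), with no overlap. The gene was also called with ABA and untreated, and in PEG-treated line 1 it had 6.55, 4.37 and 9.11 TPM. BnaA08G0021200ZS, beyond the edge, had 5.46, 4.79 and 4.37 TPM in PEG-treated line 2, against 19.6, 16.5 and 20.1 TPM in wild type (log2 change -1.75, SE 0.27, limma adjusted p = 8.78e-05). PEG-treated line 1 had 2.53, 3.22 and 2.88 TPM of it. In untreated line 2 it had 5.40, 5.63 and 2.67 TPM, against 10.97, 11.03 and 9.65 TPM in wild type (log2 change -1.10, SE 0.27, limma adjusted p = 0.00999, and 0.0659 without line 2 replicate 3). BnaA08G0022900ZS, named after its values were seen as the other gene called with ABA, had 9.60, 7.70 and 8.34 TPM in ABA-treated line 2, against 16.0, 14.2 and 13.6 TPM in wild type, and ABA-treated line 1 had 8.16, 9.77 and 9.60 TPM.

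Higher in line 2, BnaA08G0010900ZS had 20.0, 23.6 and 15.1 TPM untreated, against 7.09, 8.35 and 6.73 TPM in wild type (log2 change 1.28, SE 0.25, limma adjusted p = 0.00139), while untreated line 1 had 9.75, 8.72 and 6.37 TPM. With PEG, BnaA08G0010700ZS had 11.2, 16.6 and 14.6 TPM in line 2, against 8.50, 2.49 and 7.08 TPM in wild type (log2 change 1.21, SE 0.32, limma adjusted p = 0.0148). PEG-treated line 1 had 4.06, 1.61 and 8.32 TPM of it. That line 2 call was lost on leaving out line 2 replicate 2 (adjusted p = 0.0631) or wild type replicate 2 (adjusted p = 0.138) and with a pseudocount of 0.1 (adjusted p = 0.114).

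In the knockout experiment, whose libraries the choice of the window did not use, 207 members were listed, 108 of them in the run, and 130 members were tested. The knockout held 93.7%, 91.0% and 97.1% of its wild type mean over the run untreated, 97.6%, 97.6% and 104% with ABA, and 107%, 100.3% and 91.0% with PEG. Its wild type libraries held 93.1% to 105%. The untreated sums were 1325, 1287 and 1373 in the knockout, against 1410, 1439 and 1393 in wild type, with no overlap. The groups overlapped with ABA and with PEG. The untreated knockout mean was 94.0% of wild type over the run, 95.7% over A08 beyond it and 98.3% over all other chromosomes. Beyond the run and on the other chromosomes the groups overlapped. The median untreated log2 difference was -0.07 in the run and -0.05 over all genes tested. limma called 2 of the 130 members untreated, 2 with ABA and 4 with PEG, beside 2.45%, 1.95% and 1.33% of all 42926 genes tested there.

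BnaA08G0009900ZS, the gene raised in line 1, was listed at 0 in all untreated knockout libraries, against 5.76, 4.26 and 11.6 in wild type (log2 change -2.94, SE 0.30, limma adjusted p = 1.90e-05, on the log2(value + 1) scale). With PEG it had 0.0308, 0 and 0 in the knockout, against 5.004, 3.13 and 1.16 in wild type (log2 change -1.90, SE 0.30, limma adjusted p = 0.00170). Its neighbour BnaA08G0010000ZS, named after its values were seen, was also at 0 in the untreated knockout, against 1.52, 1.31 and 3.64 in wild type (log2 change -1.59, SE 0.19, limma adjusted p = 1.10e-04). This gene was at 0 in every library of the overexpression experiment. These were the 2 members called untreated, and the same pair was lower with PEG. Of the 71 run genes tested in that experiment, 2 were called in the knockout by ABA interaction (limma, Benjamini-Hochberg adjusted p under 0.05), beside 1.79% of all genes. These were the same pair, at 0 in the knockout both with ABA and untreated, so the interaction restates the change in wild type.

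With ABA, BnaA08G0013100ZS, 3 genes beyond the edge, had 7.67, 4.305 and 12.9 in the knockout, against 2.88, 2.68 and 1.89 in wild type (log2 change 1.32, SE 0.23, limma adjusted p = 0.00470). BnaA08G0022900ZS, the other member called, had 5.77, 6.40 and 7.86 in the knockout, against 5.39, 3.02 and 3.25 in wild type (log2 change 0.68, SE 0.15, limma adjusted p = 0.0273). Higher with PEG were BnaA08G0007700ZS (2.16, 1.69 and 1.60 in the knockout, against 0.812, 1.12 and 0.530 in wild type) and BnaA08G0014800ZS (13.002, 11.5 and 10.6 in the knockout, against 7.45, 8.81 and 7.83 in wild type), both named after their values were seen. The ABA count was 1 without knockout replicate 3 or wild type replicate 2 or 3. The PEG count was 1 without knockout replicate 1 or 2 or wild type replicate 1, and 2 without knockout replicate 3 or wild type replicate 2 or 3.

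Treatment changed members in both wild types. The shares were 23.2% with ABA and 52.3% with PEG in the overexpression experiment, and 47.7% and 63.8% in the other. Only the last exceeded the share over all genes. In the wild type of the overexpression experiment ABA changed 35 of 151 members (15 higher, 20 lower), beside 34.7% of all genes, and 23 without ABA replicates 2 and 3, which leaves 1 library with the spread taken from the other groups. PEG changed 79 of 151 (54 higher, 25 lower), beside 62.1%. In the wild type of the knockout experiment ABA changed 62 of 130 (15 higher, 47 lower), beside 49.4%, and PEG changed 83 of 130 (52 higher, 31 lower), beside 59.7% (limma, Benjamini-Hochberg adjusted p under 0.05). In the run 11 of 79 genes changed with ABA in the first and 32 of 71 in the second.

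ABA lowered BnaA08G0015400ZS to 7.71, 7.001 and 9.01 TPM, against 20.3, 21.4 and 19.0 TPM untreated (log2 change -1.26, SE 0.14, limma adjusted p = 2.25e-07), and raised BnaA08G0015900ZS to 8.54, 7.61 and 13.9 TPM, against 1.02, 0.664 and 0.553 TPM. PEG lowered BnaA08G0018800ZS to 117, 158 and 53.5 TPM, against 364, 345 and 392 TPM untreated (log2 change -1.87, SE 0.32, limma adjusted p = 3.28e-05). It raised BnaA08G0010600ZS to 39.9, 16.0 and 32.4 TPM, against 2.44, 0.735 and 1.02 TPM untreated (log2 change 3.64, SE 0.43, limma adjusted p = 2.06e-07). BnaA08G0012800ZS, at the edge, fell with PEG in wild type leaves of the knockout experiment to 20.3, 18.1 and 7.77, against 135, 179 and 186 untreated (log2 change -3.44, SE 0.57, limma adjusted p = 1.04e-04).

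Set beside the rest of the genome, the start of A08 was among the windows that varied most between line 1 libraries. In 378 windows of 250 running numbers, the median log2 ratio of line 1 to the comparison level was taken per library, and windows were ranked by the widest range within a condition. A08 1 to 250 had a range of 0.79 and ranked 2. The other windows had a median range of 0.08, and 95% of them lay under 0.20. The same window had a range of 0.15 in line 2 and 0.19 in wild type. The window of rank 1, A06 2001 to 2250, held 30 usable genes against 132 for A08, and its PEG values were 0.14, -0.44 and -0.74. With genes of at least 5 TPM (range 1.14) or windows of 100 numbers (range 1.36), A08 ranked 1. The window was chosen for its spread among these same line 1 libraries, so nothing is read from these ranks.

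**Figure D5:**
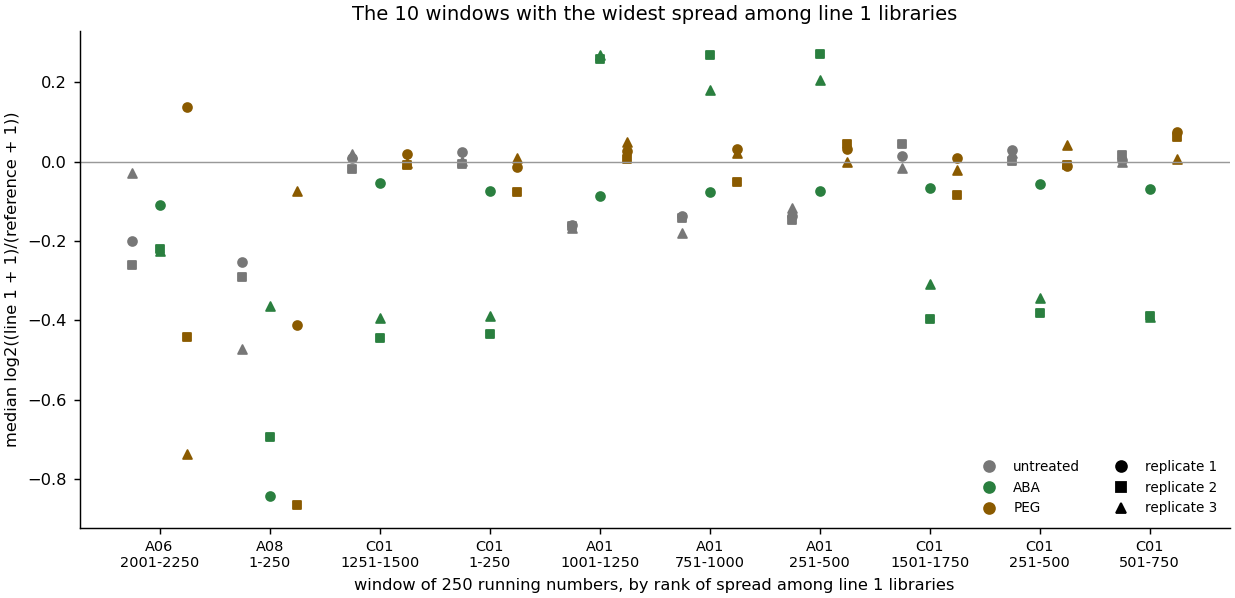
Median log2((line 1 + 1)/(comparison level + 1)) in the 9 line 1 libraries for the 10 windows of 250 running numbers with the widest range among libraries of a condition, by rank from left to right. Colour gives the condition and shape the replicate. A08 1-250 is low in 8 of the 9 libraries, lowest in PEG replicate 2 and ABA replicate 1 and near 0 in PEG replicate 3 (-0.08), while the C01 windows are low and the A01 windows high in ABA replicates 2 and 3.

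Line 1 ABA replicates 2 and 3 were also displaced on A01 and C01, while replicate 1 was not. In the C01 window 1251 to 1500 the line 1 ABA libraries had -0.05, -0.44 and -0.39, and in the A01 window 1001 to 1250 they had -0.09, 0.26 and 0.27. In both, replicate 1 was nearest to 0, whereas on A08 it was lowest, at -0.84, with -0.69 and -0.36 in replicates 2 and 3. The C01 and A01 windows varied among wild type libraries too. The widest range within a condition was 0.39 in line 1 and 0.41 in wild type for the C01 window. For the A01 window it was 0.36 and 0.22. Untreated wild type had -0.28, 0.09 and -0.32 in the C01 window. No window of 250 numbers was raised by over 0.25 in any line 1 library outside A01. In the 7 libraries other than ABA replicates 2 and 3 the highest window lay between 0.08 and 0.14.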

How the data were processed

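Leaf RNA-seq tables of 2 experiments were used as deposited. The overexpression values are the authors' TPM per transcript, and the knockout values are a deposited normalized value per gene, whose kind is not stated. Per the submitters' processing notes the tools, named without a role, included kallisto 0.51.1, sleuth 0.30.1, HISAT2 and DESeq2 1.38.3. The genome build is not given in the sources used here, and depth is unknown. Transcripts were summed to genes by dropping the point suffix. Running numbers were read from the identifiers and taken as gene order.

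The edge was the least-squares single step over members with a mean of at least 1 in the wild type and line 2 libraries. Genes with at least 1 in at least 3 libraries were tested with limma 3.58.1 (R 4.3.3; package data.table, version 1.17.8) on log2(value + 1), 1 fit per experiment, with a trended variance and Benjamini-Hochberg adjustment over all genes. The fit was tested on simulated data. Other steps used Python 3.11.15, pandas 2.3.3 and numpy 2.4.6. Alternatives were a pseudocount of 0.1, no filter, a minimum of 5, quantile normalization, a replicate block and each replicate left out.

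At most 2 identifiers were named per class: the most abundant in the run and beyond it, those next to the edge and to gene 250, and, per comparison and direction, the largest called changes of at least 2-fold with a mean of at least 5 and no overlap. The members and lists were chosen with earlier results of these data known.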

Additional observations from a re-analysis of the deposited data

Results flagged for a closer look

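BnaA08G0009900ZS, in the run, was picked out by the knockout by ABA interaction. It was listed at 0 in the ABA-treated and the untreated knockout libraries. Wild type held 0.419 ± 0.0730 with ABA and 7.21 ± 3.88 untreated (SD, n = 3 each), in the authors' normalized value. The knockout by ABA interaction was 2.43 on the log2(value + 1) scale (SE 0.42, limma, Benjamini-Hochberg adjusted p = 0.0101). Its neighbour BnaA08G0010000ZS had an interaction of 1.40 (SE 0.27, limma, Benjamini-Hochberg adjusted p = 0.0161). Its knockout libraries were also at 0 in both conditions. Values at 0 cannot fall, so both interactions equal the wild type change with its sign turned and do not show a different response. These were 2 of the 71 tested run genes, beside 1.79% of all genes.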

How the results depend on the processing

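Depth is unknown, the groups hold 3 libraries each, and identifiers stand in for positions, so the edge is known only in gene order. Of the values computed under other settings for named genes, 274 kept their direction and side of the threshold, 5 lost the call and 0 reversed. Settings without ABA-treated wild type replicates 2 and 3 leave 1 library there, assumed to vary like the other groups, and so fewer samples. BnaA08G0002000ZS then had an ABA change of -1.11 on the log2 scale in wild type (limma adjusted p = 0.0584), a call lost at an unreduced size. Replicate numbers gave no clear sign of pairing: same-numbered deviations correlated between -0.420 (line 1 against wild type with PEG) and 0.245 over 66 pairs in 22 comparisons. With 3 libraries per group and no word on shared plants, pairing is not excluded. The correlation was over 0.1 for 11 pairs, and for every pair in 0 comparisons. With the replicate as a block the knockout count with PEG was 2, and other counts stayed within 1.5 times. A minimum of 5 gave 1, 1 and 2 members called in the knockout untreated, with ABA and with PEG. It gave 33 with ABA and 51 with PEG in the knockout experiment's wild type, 51 with PEG in the other wild type, 4 run genes lower in untreated line 1 than wild type, and 4 lowered by PEG in wild type. A pseudocount of 0.1 gave 2 for the knockout with PEG, 4 for untreated line 1 against wild type, 0 for line 1 against line 2 with PEG, 1 for the ABA fall in line 2 and 2 in wild type. With no filter, untreated line 1 against wild type gave 4, line 1 against line 2 with ABA 17, line 1 against wild type with PEG 27, and the ABA fall in line 2 gave 2. Quantile normalization gave 5 for line 1 against line 2 with PEG, and 21, 17 and 15 run genes lowered by PEG in line 1, line 2 and wild type. Without ABA-treated wild type replicates 2 and 3, line 1 against wild type gave 16, the members changed by ABA in wild type 23, and the run genes lowered there 0. Over genes 1 to 250 in place of the run, line 1 stood at 76.4% and 68.0% of wild type in untreated replicates 2 and 3, and at 54.6%, 59.8% and 69.5% with ABA. In windows of 100 the range was 1.36. The cause of these shifts was not tested.

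With 1 replicate left out in turn, the edge lay between 126 and 128. Members called ranged from 6 to 11, 1 to 4 and 9 to 15 in line 2 (untreated, ABA, PEG), and from 2 to 2, 1 to 2 and 1 to 2 in the knockout. They ranged from 27 to 39 with ABA and 66 to 76 with PEG in the overexpression experiment's wild type, and from 54 to 60 and 74 to 81 in the other. Run genes lower in line 1 than wild type ranged from 1 to 5, 30 to 53 and 7 to 64, and lower than in line 2 from 0 to 1, 0 to 39 and 0 to 44. Those lowered by ABA ranged from 20 to 44 in line 1, 0 to 2 in line 2 and 1 to 5 in wild type, and those lowered by PEG from 7 to 25, 8 to 10 and 5 to 9.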
